A study of Homo sapiens with 12 samples.

Results

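Nucleocapsid (NC), the last 66 amino acids of the gag protein of *PEG10*, was compared with a control plasmid by RNA-seq of transfected HEK293 cells. HEK293 is an immortalized line of human embryonic kidney origin. The 6 libraries carrying the labels for NC transfection (3 libraries) and LifeAct-Dendra2 transfection (3 libraries) were chosen from 12 libraries in all, and an NC and a control library of equal replicate number formed a pair. The cells were wild type throughout, and they were harvested 48 hr after transfection with 1 µg of plasmid. The replicates came from 3 passages of the cells, and equal replicate numbers were taken to mark the same passage, which is not stated for single libraries. LifeAct-Dendra2 is a fluorescent protein joined to a short actin-binding peptide, so the control also expressed a foreign protein, and the study's methods call the control of their pathway analysis pCDNA. The NC construct was expressed from a pCDNA3.1 vector as an isolated fragment, a model in which NC is made without the rest of gag or the protease that would release it. The remaining 6 libraries came from cells given PEG10 gag or PEG10 gag-pol (3 of each), which entered the same fit and so share in its estimate of the spread, and which are otherwise used to show where NC stood apart. Every gene except *PEG10* was considered: 17175 of 26485 gene symbols passed the filter on low counts.

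*PEG10* is a retrotransposon-derived gene that mammals have retained, and it still encodes gag and, through ribosomal frameshifting, gag-pol proteins. In retroviruses and retrotransposons the protease cuts gag into capsid and nucleocapsid, and nucleocapsid binds RNA and DNA through short zinc knuckles in which 3 cysteines and 1 histidine hold a zinc ion (CCHC). The experiment asked whether NC, once freed from gag, alters the abundance of cellular transcripts.

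The coding bases of the NC construct are shown because they are the only *PEG10* sequence these cells received, with the bases of the CCHC zinc knuckle in capitals. They were read from GRCh38 on the forward strand, chr7:94664334-94664531, in the coding part of an exon of *PEG10*. The 198 bases encode amino acids 260 to 325 of the 325 in gag, and the knuckle takes up amino acids 295 to 308, which are 42 bases at chr7:94664439-94664480.
NC coding bases: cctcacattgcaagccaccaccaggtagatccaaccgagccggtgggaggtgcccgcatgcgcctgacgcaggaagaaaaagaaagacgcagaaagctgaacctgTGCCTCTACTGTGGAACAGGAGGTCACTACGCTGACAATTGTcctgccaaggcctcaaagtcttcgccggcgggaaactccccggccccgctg

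Counts on *PEG10*, which sum the cellular and the transfected transcript, followed the labels. The normalized count of *PEG10* was 12266, 12635 and 8402 in the 3 control libraries and 109993, 91518 and 146083 in the 3 NC libraries. Reads counted on genes totalled 33996811 to 41708839 per control library and 34067636 to 41288987 per NC library. Replicates within a group differed by more than sampling noise (chi-square per degree of freedom 32.1 to 62.9). The summed level of 12 genes known from HEK293 cells was 1324 to 1953 CPM, a count scaled to library size, in control and 1786 to 2397 CPM with NC. Of 8 blood markers, the hemoglobin genes *HBB* and *HBG1* were at 0 in these 6 libraries. The 8 summed to 6.93 to 22.1 CPM in control and 4.41 to 11.8 CPM with NC, with *CD14* the most abundant. A set of 15 markers of liver, muscle, fibroblasts, endothelium and epithelium summed to 107 to 141 CPM in control and 108 to 113 CPM with NC. For 7 markers of neurons and glia the sums were 54.0 to 68.2 CPM and 62.8 to 66.2 CPM. Control replicate 3 was the lowest control library for 858 of the 1036 genes higher with NC, against 6173 of all 17175 genes. It was the highest for 696 of the 885 lower genes, against 6160 of all genes. These genes were called from the same control values, so part of that excess follows from the choice. The order was partly shared by replicate number: NC replicate 3 was the lowest NC library for 663 of the higher genes. It was the highest for 526 of the lower genes. Control replicate 2 was the highest control for 782 of the higher and the lowest for 670 of the lower genes. Calls of genes and lists that changed without control replicate 3 are given beside the results below.

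With NC, 1921 of 17175 genes changed from their control level (11.2% of those tested), 1036 higher (6.03%) and 885 lower (5.15%), by edgeR's quasi-likelihood test with construct and replicate number in the model and a threshold of 0.05 on the adjusted p-value. The changes were small. The median log2 fold change was 0.39 for the higher genes, -0.42 for the lower genes and 0.004 over all genes. A log2 fold change of at least 0.5 was reached by 252 higher and 341 lower genes, and one of at least 1 by 15 higher and 103 lower genes. In 1913 of the 1921 changed genes the 3 pairs had the same sign, as they did in 8236 of all genes tested. The 3 NC libraries and the 3 control libraries did not overlap for 503 of the changed genes (26.2%), and this held for 9.50% of all genes tested. The third pair differed most: it had the largest of the 3 differences for 711 of the higher and 556 of the lower genes (68.6% and 62.8%), against 45.9% of all genes. Medians in pairs 1, 2 and 3 were 0.30, 0.36 and 0.51 (log2) for the higher and -0.35, -0.38 and -0.56 for the lower genes. Without control replicate 3 the test called 367 genes, of which 359 were among the 1921. Without the replicate number in the model it called 1 gene, *SLC44A2*, and 1089 at an unadjusted p-value under 0.05.

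**Figure D1:**
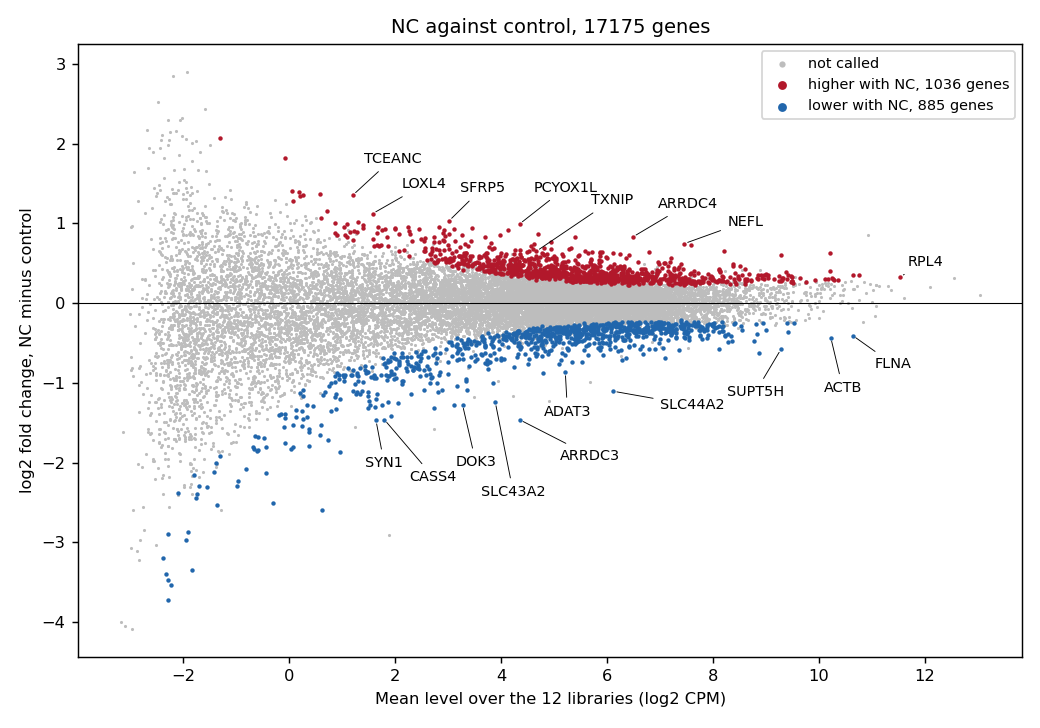
Each point is a gene, with its mean log2 CPM over the 12 libraries on the horizontal axis and its fitted log2 fold change (NC minus control) on the vertical axis. The 1036 genes higher with NC are red, the 885 lower genes are blue and genes not called are grey. Falls of at least 1 were more frequent than rises of that size (103 against 15). Of the called genes, 74 lower and 13 higher ones averaged under 1 log2 CPM.

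Of called genes that averaged 1 log2 CPM or more and moved in 1 direction in all pairs, the largest rise was that of *TCEANC*. *TCEANC*, a relative of the transcription elongation factor TFIIS on chromosome X (13653112 to 13681964, forward strand), had normalized counts of 47.7, 69.2 and 39.8 in control and 149.7, 147 and 107 with NC. All NC libraries were above all control libraries, with a log2 fold change of 1.35 (SE 0.26, adjusted p = 0.0031). *LOXL4*, a lysyl oxidase-like enzyme of the extracellular matrix on chromosome 10, had 65.4, 86.0 and 64.5 in control and 117, 229.7 and 134 with NC, again without overlap (log2 fold change 1.12, SE 0.22, adjusted p = 0.0041). *SFRP5*, a secreted inhibitor of Wnt signaling, had 259, 374 and 86.0 in control and 444, 669 and 282 with NC. For this gene each NC library exceeded its own control, while the groups overlapped (log2 fold change 1.03, SE 0.21, adjusted p = 0.0058).

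*PCYOX1L*, a relative of prenylcysteine oxidase on chromosome 5, behaved in the same manner at a higher level, with 803, 689 and 247 in control and 1350.1, 1338 and 623 with NC (log2 fold change 0.99, SE 0.13, adjusted p = 0.00026). The other 8 of the 12 largest rises had log2 fold changes from 0.94 to 1.02. They were *ST6GALNAC5*, a ganglioside sialyltransferase; *GABRA5*, a subunit of the GABA-A receptor; *ADCYAP1R1*, the receptor of the neuropeptide PACAP; *PEX11G*, which acts in peroxisome division; *FUOM*, a fucose mutarotase; *FAM198A*; *KLHDC9*; and the pseudogene *FAM86DP*, whose reads may be shared with near-identical copies. Without control replicate 3, *GABRA5*, *ADCYAP1R1*, *PEX11G*, *FUOM*, *FAM198A* and *KLHDC9* no longer passed the threshold. *TCEANC*, *LOXL4*, *SFRP5* and *PCYOX1L* passed it in each fit that left out a single library. With all libraries of replicate 1 left out *TCEANC* missed it (adjusted p = 0.059), and with those of replicate 2 *LOXL4* did (0.061).

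The 12 largest falls, chosen in the same way, were larger than the rises, with log2 fold changes from -1.47 to -1.26. *CARD6*, a caspase recruitment domain protein on chromosome 5 (40841308 to 40860175, forward strand), had normalized counts of 463, 317 and 849 in control and 292, 98.6 and 299 with NC. These groups did not overlap (log2 fold change -1.28, SE 0.17, adjusted p = 0.00026). *DOK3*, an adaptor of immune receptor signaling, had 523, 373 and 1112 in control and 221, 151 and 456 with NC. The fall of *DOK3* was nearly the same in each pair (log2 fold change -1.28, SE 0.15, adjusted p = 5.9e-05), although the groups overlapped. *SYN1*, the synaptic vesicle protein synapsin I, had 365, 118 and 297 in control and 158, 53.003 and 72.7 with NC (log2 fold change -1.47, SE 0.22, adjusted p = 0.00071). Its groups overlapped, and *SYN1* itself overlaps *ARAF* and *TIMP1* on the opposite strand. *CD14*, a co-receptor for lipopolysaccharide, had 115, 128 and 536 in control and 58.4, 29.8 and 260.0 with NC, so that each NC library lay below its own control while the groups overlapped (log2 fold change -1.28, SE 0.24, adjusted p = 0.0026).

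*LSMEM1* had 378, 233 and 599.8 in control and 189.7, 99.5 and 189 with NC (log2 fold change -1.31, SE 0.20, adjusted p = 0.00074) and lies on the same strand as *IFRD1*, which overlaps it and had a log2 fold change of -0.09 (adjusted p = 0.44). The other 7 of the 12 largest falls had log2 fold changes from -1.46 to -1.26. They were *ARRDC3*, *CASS4* (a Cas scaffold protein), *PYGM* (muscle glycogen phosphorylase), *C3* (the central complement component), *RANBP3L*, *C7orf61* and *CNTD2*. *C7orf61* overlaps *TSC22D4* on the same strand, and *TSC22D4* was lower too (log2 fold change -0.47, adjusted p = 0.0023), so the reads of these genes cannot be fully separated. *C3* and *CNTD2* lost their calls without control replicate 3.

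**Figure D2:**
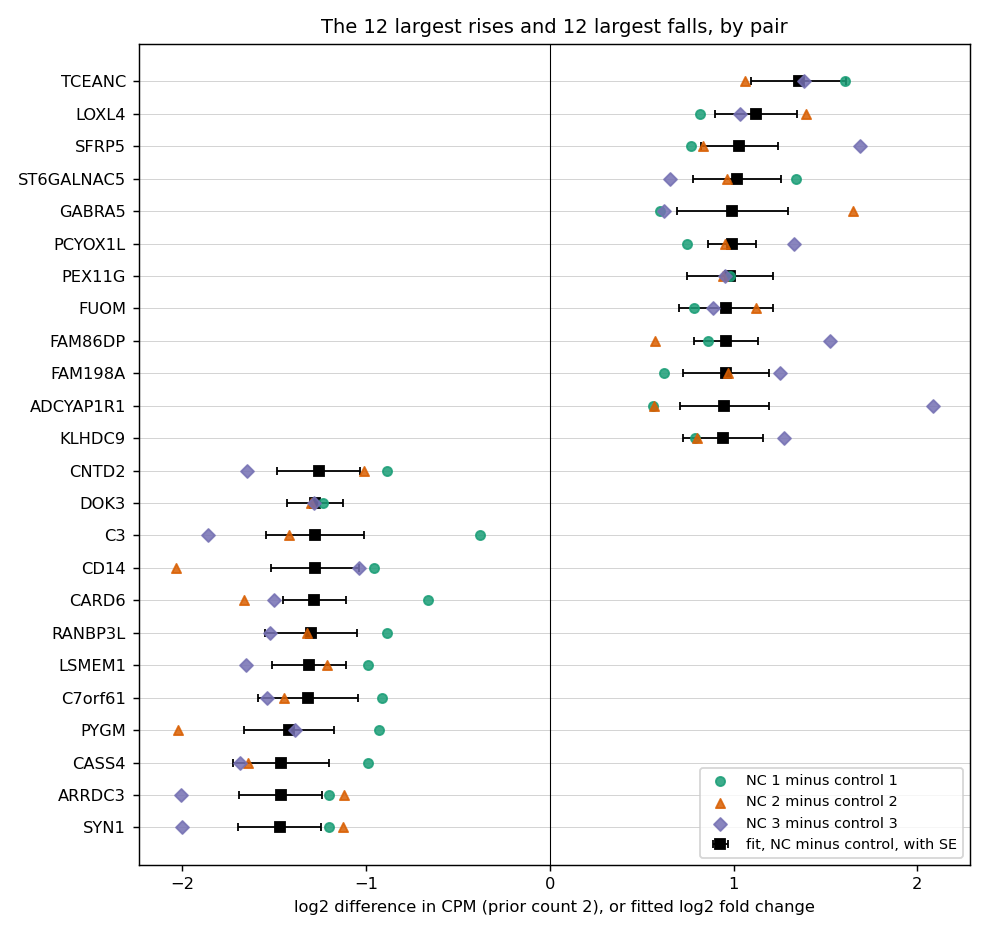
The 12 largest rises and 12 largest falls are listed from top to bottom, with the log2 difference of each NC library from the control of the same number (circle, triangle and diamond for replicates 1, 2 and 3) and the fitted log2 fold change with its SE (black). The differences of the pairs carry the sign of the fit, as the choice of genes required, and the spread among the 3 pairs is often larger than the SE, as for *ADCYAP1R1* and *C3*.

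The 3 smallest adjusted p-values belonged to the transporters *SLC44A2* and *SLC43A2* and to the alpha-arrestin *ARRDC4*. Alpha-arrestins are adaptors that bring membrane transporters to ubiquitin ligases of the NEDD4 family. *SLC44A2*, a choline transporter, had normalized counts of 5629, 4706 and 4180.0 in control and 2073, 2327 and 2341 with NC, a fall without overlap (log2 fold change -1.10, SE 0.10, adjusted p = 9.2e-07). It passed the threshold in every alternative tried, with the highest adjusted p (0.0028) in the model without replicate number. *SLC43A2*, a transporter of large neutral amino acids, had 1371, 907 and 891 in control and 463, 426 and 424 with NC (log2 fold change -1.24, SE 0.12, adjusted p = 6.7e-06). Values in the gag libraries were 521, 414 and 329 for *SLC43A2* and 1818, 1872 and 2012 for *SLC44A2*, and neither gene differed between NC and gag by edgeR's test (log2 difference 0.08, adjusted p = 0.73, and 0.24, adjusted p = 0.088).

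*ARRDC4* had 1991, 3825 and 1717 in control and 3730.5, 5727 and 3494 with NC. It rose by 0.83 on the log2 scale (SE 0.09, adjusted p = 2.6e-05), with overlap between the groups and a rise in every pair. *TXNIP*, whose product also binds thioredoxin, had 539.6, 709.7 and 550.3 in control and 863, 1180.0 and 798 with NC, without overlap (log2 fold change 0.65, SE 0.10, adjusted p = 0.00089). *ARRDC3* moved the other way, with 1708, 986 and 1384 in control and 743, 452 and 344 with NC, also without overlap (log2 fold change -1.46, SE 0.22, adjusted p = 0.0046). *ARRDC2* was lower as well (log2 fold change -0.32, SE 0.10, adjusted p = 0.042), a call that 12 of the 15 fits leaving out a library or replicate number did not keep, control replicate 3 among them. *ARRDC1* had a log2 fold change of 0.03 (SE 0.08, adjusted p = 0.86). Alpha-arrestins therefore held 2 higher and 2 lower genes among the 5 tested. *ARRDC3* overlaps the antisense gene *ARRDC3-AS1*, which had a log2 fold change of -0.82 (adjusted p = 0.048), and without a stated strand setting their reads cannot be told apart.

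Of 18 amino acid transporters tested, 1 was higher and 2 were lower (16.7% called, against 11.2% of all genes, median log2 fold change -0.05). The light and heavy chains of the large neutral amino acid exchanger moved in opposite directions. *SLC7A5*, the light chain, had 10085, 11906 and 6469 in control and 12160.2, 15569.9 and 10042 with NC (log2 fold change 0.43, SE 0.09, adjusted p = 0.0079). *SLC3A2*, the heavy chain, had 16834, 11663 and 18388 in control and 13432, 10245 and 9597 with NC (log2 fold change -0.49, SE 0.11, adjusted p = 0.011). Neither call remained without control replicate 3, where the adjusted p-values were 0.076 for *SLC7A5* and 0.060 for *SLC3A2*. Among 12 genes of choline and phospholipid synthesis 16.7% were called. *PEMT* was the only higher gene (log2 fold change 0.40), a call lost without control replicate 3, and *SLC44A2* the only lower gene.

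**Figure D3:**
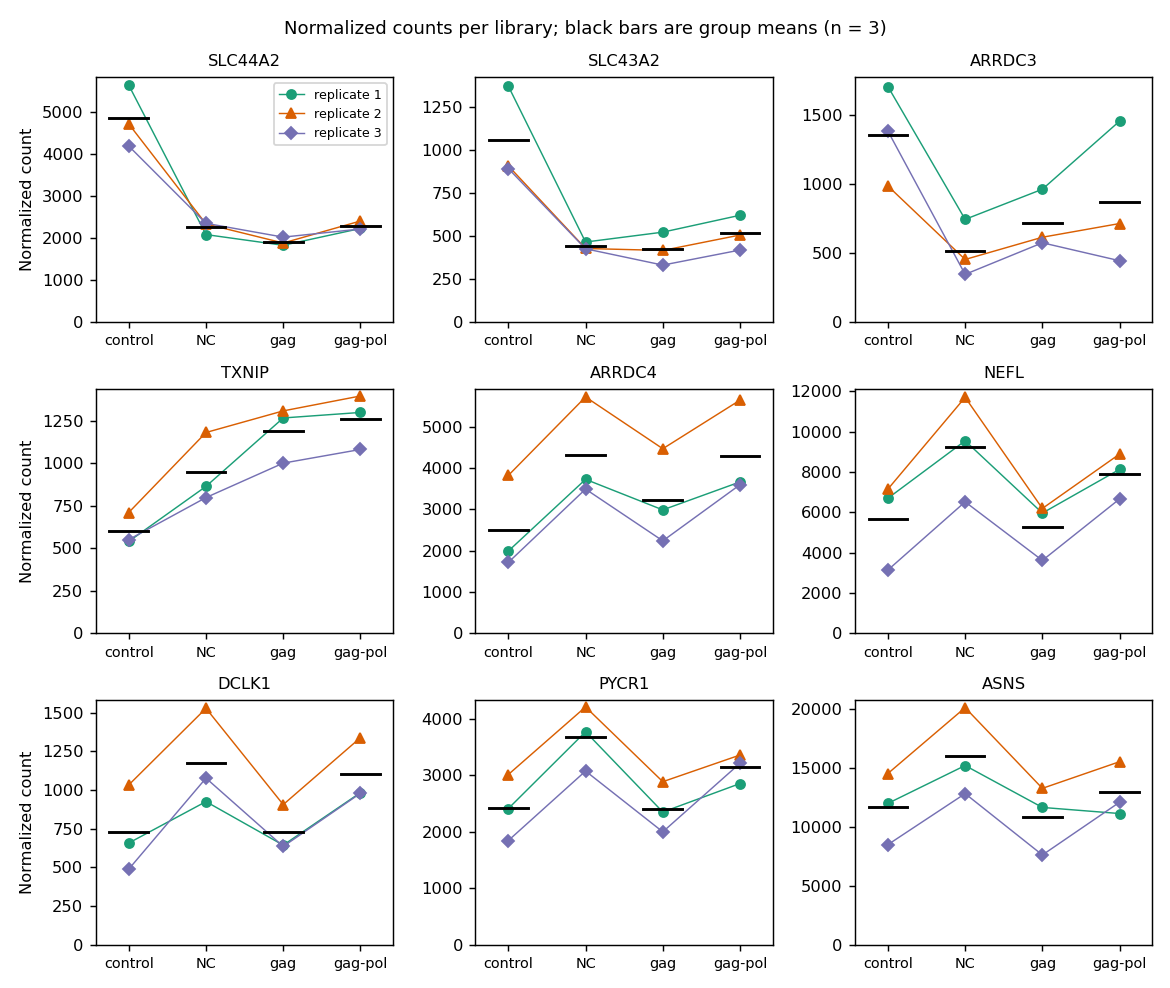
Normalized counts of 9 genes are plotted for each library of control, NC, gag and gag-pol, with lines joining libraries of the same replicate number and black bars for the group means (n = 3). *SLC44A2* and *SLC43A2* were low with all 3 PEG10 constructs, while *NEFL*, *DCLK1*, *PYCR1* and *ASNS* rose from control to NC in each replicate and had gag values near those of control.

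Genes of neurons followed, since the study singled out axon extension. The 6 axon extension genes it chose were higher with NC in every pair, with log2 fold changes from 0.71 to 0.86 (median 0.75). As they were chosen on these samples, their direction is not independent evidence. *DCLK1*, a microtubule-binding kinase of growing axons, had normalized counts of 658, 1033 and 489 in control and 926, 1529 and 1077 with NC (log2 fold change 0.72, SE 0.12, adjusted p = 0.001). *SLIT3*, a secreted guidance ligand, had 189.9, 347 and 196 in control and 304, 543 and 358 with NC (log2 fold change 0.73, SE 0.14, adjusted p = 0.0038). The groups overlapped for both genes, and the rise was seen within each pair. The others were the Wnt ligand *WNT3A*, the semaphorin *SEMA5B*, the semaphorin receptor subunit *PLXNA4* and *C9orf72*. Without control replicate 3, 4 of the 6 were called and *SEMA5B* and *C9orf72* were not.

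The broader families were less uniform. Of 67 axon guidance genes tested, 9 were higher and 1 was lower, and their median log2 fold change was 0.08. This is 14.9% called, near the 11.2% of all genes. By role, 3 of 19 semaphorins, 2 of 11 plexins and neuropilins, 2 of 6 Slits and Robos, 1 of 10 netrins and their receptors and 1 of 13 Eph receptors were higher, and none of the 8 ephrins was called. *UNC5B*, a netrin receptor, rose by 0.47 on the log2 scale (SE 0.08, adjusted p = 0.0011), and *PLXNA2* by 0.39. Of 52 Wnt pathway genes 7 were higher and none was lower (median 0.12). This is 13.5% called, against 11.2% of all genes called and 6.03% higher. The 7 genes included the ligands *WNT7B* (0.83, SE 0.16, adjusted p = 0.0031) and *WNT3A*, but also the inhibitors *SFRP5* and *SFRP1* (0.52). Leaving out control replicate 3, axon guidance had 4 higher genes and the Wnt pathway 3, and *PLXNA2* and *SFRP1* lost their calls.

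In the neuronal cytoskeleton, 10 of 28 genes tested were higher and 1 was lower (39.3% called, median 0.20). *NEFL*, the light neurofilament subunit, had 6691, 7146 and 3134 in control and 9539.9, 11695 and 6514 with NC (log2 fold change 0.75, SE 0.12, adjusted p = 0.0024). *DPYSL4*, a collapsin response mediator that binds tubulin, had 849.9, 978 and 415 in control and 1259.9, 1492 and 888 with NC (log2 fold change 0.74, SE 0.12, adjusted p = 0.00076). In both genes replicate 3 was the lowest library of its group, and each pair rose. *STMN3*, a tubulin-binding stathmin, was higher by 0.43, and *MAP1A*, the lower gene, had -0.72 and was named after its value was seen. The list had 4 higher genes and no lower one without control replicate 3. Synaptic and dense-core vesicle genes did not share this direction: 2 of 42 were higher and 4 lower (14.3% called, against 11.2% of all genes), with a median of -0.11. *CPLX1* (complexin 1) rose by 0.50, while *SYN1*, *STX1A* (syntaxin 1A, -0.46) and *SV2A* (-0.32) were lower. *STX1A* and *SV2A* lost their calls without control replicate 3, where the list had 1 higher and 1 lower gene.

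Several metabolic enzymes were higher with NC. Of 35 genes that break down or make amino acids, mostly in mitochondria, 11 were higher and none was lower (31.4% called, median 0.15). The shares in this paragraph are read against the 11.2% of all genes called (6.03% higher and 5.15% lower). *PYCR1*, which makes proline in mitochondria, had 2413, 3016 and 1847 in control and 3774, 4213 and 3078 with NC. Its groups did not overlap (log2 fold change 0.62, SE 0.10, adjusted p = 0.00086). *PCCB*, a subunit of propionyl-CoA carboxylase, *FAH*, the last enzyme of tyrosine breakdown, and *GLS2*, a glutaminase, rose by 0.56, 0.63 and 0.64. The list kept 5 higher genes without control replicate 3. The tricarboxylic acid cycle was split, with 5 of 30 genes higher and 3 lower (26.7% called, median 0.11), or 3 higher and 1 lower without control replicate 3. *IDH2* (mitochondrial isocitrate dehydrogenase) had a log2 fold change of 0.64, *SUCLG2* 0.62 and *PDK1*, which inhibits pyruvate dehydrogenase, 0.62, whereas *PC* (pyruvate carboxylase) had -0.63 (SE 0.11, adjusted p = 0.0014).

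Among 27 genes of the integrated stress response, which ATF4 drives when amino acids are scarce, 10 were higher and 1 was lower (40.7% called, median 0.20). *ASNS* (asparagine synthetase) had 11993, 14526 and 8496 in control and 15202, 20111 and 12821 with NC (log2 fold change 0.47, SE 0.10, adjusted p = 0.0069). *PCK2*, *TRIB3* and *MTHFD2* rose by 0.51, 0.52 and 0.45. These 4 genes rose in every pair. *SESN2*, the lower gene, had -0.43 and was named after its value was seen. Without control replicate 3, 5 genes were higher and *ASNS* missed the threshold (adjusted p = 0.074). Of 22 genes of the unfolded protein response, a related pathway of the endoplasmic reticulum, 3 were higher and none was lower (median 0.14). This is 13.6% called, against 11.2% of all genes called and 6.03% higher. The chaperone *HSP90B1* was 1 of the 3 (0.39, SE 0.08, adjusted p = 0.0031). That list had 1 higher gene without control replicate 3 and none without replicate 1.

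Nucleotide breakdown had 4 higher genes and no lower gene among 21. *ADA* (adenosine deaminase) had 775, 1092 and 439.6 in control and 1212, 1831 and 1071 with NC (log2 fold change 0.87, SE 0.12, adjusted p = 0.0004), and *NT5M*, a mitochondrial nucleotidase, rose by 0.75. Base excision repair had 2 higher genes among 22, the DNA glycosylase *NEIL2* (0.85, SE 0.13, adjusted p = 0.00058) and the ligase *LIG3* (0.37). In hypoxia and glycolysis 6 of 41 were higher, among them *HK2* (hexokinase 2, 0.43) and *PFKL* (liver phosphofructokinase, 0.39), and in sterol and fatty acid synthesis 6 of 33, among them *SCD* (stearoyl-CoA desaturase, 0.34) and *HMGCS1* (0.63), an enzyme of cholesterol synthesis. No gene of these 4 lists was lower. The shares called were 19% in nucleotide breakdown, 9.09% in base excision repair, 14.6% in hypoxia and glycolysis and 18.2% in sterol and fatty acid synthesis. Over all genes 11.2% were called and 6.03% were higher. In the fit without control replicate 3 the higher genes numbered 2 in nucleotide breakdown, 1 in base excision repair, 2 in hypoxia and glycolysis and 1 in sterol and fatty acid synthesis, and *LIG3* and *SCD* lost their calls. Among 19 targets of NRF2, 3 were higher, and among 20 targets of p53, 3 were higher and 1 lower, with *AEN* at 0.50 (SE 0.07, adjusted p = 0.00056) and *BAX* at -0.41. These are 15.8% and 20% called, against 11.2% of all genes called and 6.03% higher. With control replicate 3 left out, no NRF2 target was called, 2 p53 targets were higher and *BAX* lost its call.

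The most abundant transcripts that were higher were those of the ribosome. All 79 cytosolic ribosomal protein genes had positive log2 fold changes, from 0.03 to 0.37 with a median of 0.24, and 23 passed the threshold (29.1%). *RPL4* had 100597, 116101 and 91779 in control and 118117, 148862 and 121664 with NC, without overlap (log2 fold change 0.33, SE 0.10, adjusted p = 0.031). *RPL12* had 22560.5, 24872 and 21232 in control and 27843, 33949 and 26213 with NC, without overlap (log2 fold change 0.35, SE 0.09, adjusted p = 0.012). None of the 79 was called without control replicate 3, without replicate 1 or without replicate 2, where their medians were 0.17, 0.27 and 0.20, and 42 were called without replicate 3. These genes are transcribed at high levels and have many processed pseudogenes, so some of their reads may have been counted elsewhere. Of 72 nuclear genes of oxidative phosphorylation 9 were higher and none was lower (median 0.16, 65 positive), and none was called without control replicate 3. The 9 are 12.5% called, against 11.2% of all genes called and 6.03% higher. The other abundant gene that was higher was *HNRNPA1*, an RNA-binding protein of splicing (0.29, SE 0.09, adjusted p = 0.036), and it too lost its call without control replicate 3.

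The 6 most abundant transcripts that were lower are given next. *FLNA* (filamin A), on chromosome X, had 73752, 81361 and 69684 in control and 50454, 60149 and 59604 with NC, without overlap (log2 fold change -0.41, SE 0.09, adjusted p = 0.0058). *ACTB* (beta-actin) had 67442, 52677 and 49949 in control and 46559, 41189.9 and 37615 with NC, also without overlap (log2 fold change -0.43, SE 0.09, adjusted p = 0.0046). For both genes the gag and gag-pol libraries lay below all control libraries as well, and the control plasmid encodes an actin-binding peptide, which cannot be told apart from an effect of NC in these comparisons with control. *SUPT5H*, a subunit of the elongation factor DSIF, had 27964, 22079 and 40524 in control and 21627, 16440.2 and 21471 with NC (log2 fold change -0.58, SE 0.11, adjusted p = 0.0031). *POLR2A*, the largest subunit of RNA polymerase II, fell by 0.37 on the log2 scale (SE 0.09, adjusted p = 0.011). The splicing proteins *HNRNPH1* and *SFPQ* each had -0.25, with adjusted p-values of 0.047 and 0.036. *POLR2A*, *HNRNPH1* and *SFPQ* lost their calls without control replicate 3, and the first 2 genes of this paragraph lost theirs when replicate 1 was left out.

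Interferon-stimulated genes had the lowest median of the lists (-0.51 over 34 genes). Of these genes 3 were lower and 1 was higher (11.8% called, near the 11.2% of all genes). The median was 0.02 in pair 1, -0.51 in pair 2 and -0.71 in pair 3, and it was -0.18 without control replicate 3. *IFIT1*, which binds uncapped RNA, had 788, 377 and 1409 in control and 529, 209 and 481 with NC (log2 fold change -1.01, SE 0.19, adjusted p = 0.0065). *DDX58*, which encodes the RNA sensor RIG-I, had 558, 341 and 809 in control and 415, 237 and 306 with NC (log2 fold change -0.79, SE 0.17, adjusted p = 0.0058, and 0.11 in the least favorable fit that left out a library or number). Both genes had their highest value in control replicate 3. *HERC5* had a log2 fold change of -0.44, and *BST2* (tetherin) rose by 0.76. Without control replicate 3, *DDX58* and *BST2* lost their calls (adjusted p = 0.069 for *BST2*), and 2 genes of the list were lower and none was higher.

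The remaining stress and growth lists are read against the 11.2% of all genes called (6.03% higher and 5.15% lower). Among 26 heat shock genes 1 was higher and 4 were lower (19.2% called), including the testis chaperone *HSPA2* (-0.83, SE 0.13, adjusted p = 0.00089) and *DNAJB4* (-0.70). Immediate early genes had 1 higher and 2 lower members among 30 (10% called). Genes of ERK feedback had 4 higher and 2 lower among 20 (30% called), led by *PHLDA1* (0.93, SE 0.16, adjusted p = 0.0014). In mitosis 7 of 33 were higher and none was lower (21.2% called, median 0.15), and none was called without control replicate 3. In DNA replication 3 of 43 were higher and 2 were lower (11.6% called), and of 41 replication-dependent histone genes 1 was higher and 1 was lower (4.88% called). The fit without control replicate 3 had no higher and 3 lower heat shock genes, 1 higher and no lower gene of ERK feedback, 2 higher and no lower gene of DNA replication, and no called immediate early or histone gene. Histone messages mostly lack poly(A) tails, so poly(A)-selected libraries measure them poorly.

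**Figure D4:**
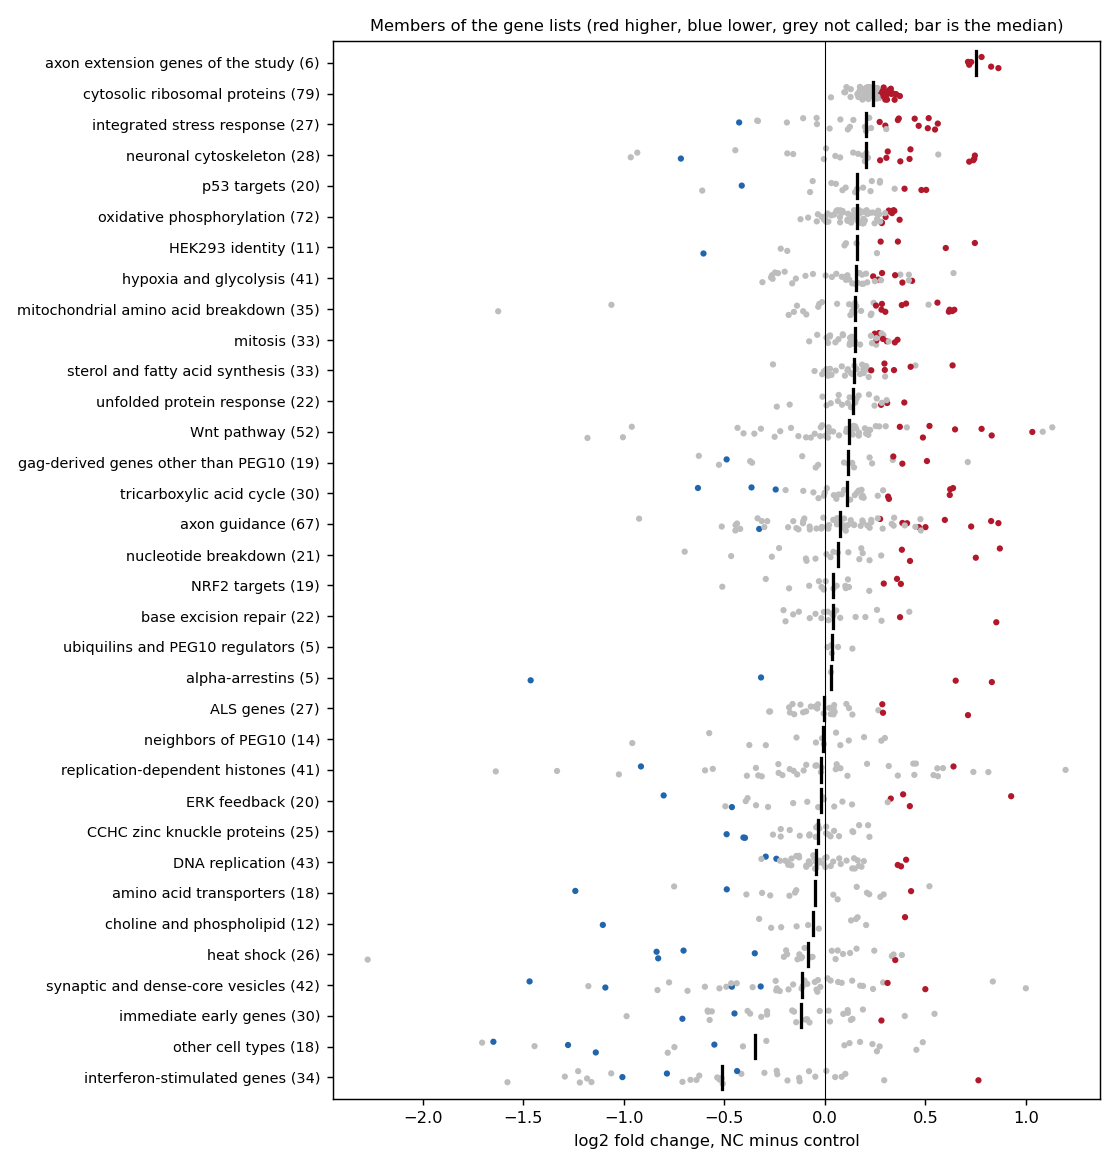
Log2 fold changes (NC minus control) of the tested members of 34 gene lists, ordered by the list median (black bar), with the number tested in brackets. Red and blue points passed the threshold in the higher and lower direction and grey points did not. Ribosomal proteins form a narrow cluster above 0, while interferon-stimulated genes spread from -1.58 to 0.76.

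Other genes that carry gag or a zinc knuckle were listed because NC is such a domain. Of 19 gag-derived genes other than *PEG10*, 3 were higher and 1 was lower (21.1% called, against 11.2% of all genes): *PNMA2* rose by 0.39, *CCDC8* by 0.34 and *LDOC1* by 0.51, and *ZCCHC12* had -0.49 (SE 0.10, adjusted p = 0.0065). The 3 rises lost their calls without control replicate 3, and *ZCCHC12* kept its call. None of 25 genes with CCHC zinc knuckles was higher and 3 were lower, *ZCCHC12*, *ZCCHC8* (-0.41) and *ZCCHC6* (-0.40), which is 12% called. Without control replicate 3, *ZCCHC8* and *ZCCHC6* lost their calls. No call was made among 5 ubiquilins and regulators of PEG10 protein (log2 fold changes 0.01 to 0.14) or among 14 genes that neighbor *PEG10* on chromosome 7. Of 27 genes linked to amyotrophic lateral sclerosis 3 were higher, *C9orf72*, *CHCHD10* and *HNRNPA1*. This is 11.1% called, against 11.2% of all genes called and 6.03% higher, and none was called without control replicate 3. *IRS4*, an insulin receptor substrate characteristic of HEK293 cells, rose by 0.60 (SE 0.10, adjusted p = 0.00096). Of 11 genes of HEK293 identity 4 were higher and 1 was lower (45.5% called), or 2 and none without control replicate 3. Markers of other cell types had 4 lower and no higher genes among 18 tested (*CD14*, *COL3A1*, *ACTA1* and *COL1A1*). This is 22.2% called, against 11.2% of all genes called and 5.15% lower. The summed level of blood markers was 4.41 to 11.8 CPM with NC against 6.93 to 22.1 CPM in control. With control replicate 3 left out, *COL3A1*, *ACTA1* and *COL1A1* lost their calls and 1 marker was lower. Their part in the falls of other genes was not tested.

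Direct comparisons with the longer constructs, which contain the same 198 bases, show where NC differed from them. Their counts on *PEG10* were far from equal, with mean normalized counts of 115865 with NC, 2.01e+06 with gag and 1.75e+06 with gag-pol. These counts are not scaled to transcript length, and the NC insert is the shortest, so they do not compare numbers of molecules. The amount of transfected transcript and the construct itself cannot be told apart in these comparisons. Between NC and gag 2897 of 17175 genes differed (16.9%), 1504 higher and 1393 lower with NC. The comparisons of NC with control and of NC with gag share the NC libraries, so errors in these libraries push both the same way. An overlap between their calls is therefore not independent evidence. Of the 1036 genes higher with NC than control, 649 were also higher with NC than gag. Of the 885 lower genes, 471 were also lower with NC than gag. *PYCR1* is an example: the gag libraries had 2352, 2889 and 2001, close to control, and NC exceeded gag by 0.62 on the log2 scale (SE 0.10, adjusted p = 0.00053). *CARD6* had 533, 273 and 634 with gag and was lower with NC by 1.12 on the log2 scale (adjusted p = 0.00048), and *LSMEM1*, with 458, 234 and 439, by 1.24 (adjusted p = 0.00064). *TCEANC* and *LOXL4* were not distinguished from gag (log2 differences 0.55 and 0.57, adjusted p-values 0.13 and 0.079).

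Between NC and gag-pol only 15 genes differed (0.0873% of those tested), 14 of them lower with NC, and 1703 did at an unadjusted p-value under 0.05. Both constructs were compared with the same control libraries, so their fold changes against control share its errors. The comparisons of NC with control, gag and gag-pol likewise share the NC libraries and their errors. Among the 1036 genes higher with NC gag-pol had a median of 0.32 (log2, against control) and gag one of 0.05, and among the 885 lower genes these were -0.37 and -0.11. *ADAT3*, a subunit of a tRNA adenosine deaminase on chromosome 19 (1905399 to 1913447, forward strand), was the only gene that NC changed in the same direction against control, gag and gag-pol. Its normalized counts were 1502, 1236 and 2647 in control, 909, 664 and 1362 with NC, 1570.0, 1179 and 2454 with gag, and 1733, 993 and 1674 with gag-pol. With NC *ADAT3* was the lowest in every replicate number, by 0.87 on the log2 scale against control (SE 0.12, adjusted p = 0.00043), by 0.82 against gag (adjusted p = 0.00041) and by 0.62 against gag-pol (adjusted p = 0.045). *ADAT3* no longer met all 3 comparisons with 10 counts required in every library, with upper-quartile factors or without replicate number, and it met them in 4 of 15 fits with a library or a replicate number removed. It lies within *SCAMP4* on the same strand, which had a log2 fold change of 0.001 (adjusted p = 0.996), and how reads on both genes were counted is not given in the sources used here. The fits that left out gag-pol replicate 3 or all of replicate 3 gave 88 and 108 such genes, and 5 alternatives with all libraries gave 3 to 23.

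The called genes were not spread evenly over the genome or over base composition. On chromosome X 73 of 552 genes tested were higher (13.2%, against 6.03% of all genes) and 22 were lower (3.99%), with a median log2 fold change of 0.10. That median was 0.08, 0.08 and 0.18 in the 3 pairs, and with gag and gag-pol it was -0.02 and 0.06. On chromosome 19 132 of 1229 genes were lower (10.7%, against 5.15%) and 54 were higher (4.39%). Lower genes were richer in G and C: their transcripts had a median GC content of 55.7%, against 49.1% for genes not called and 49.5% for all tested genes. From the lowest to the highest of 5 equal bins of GC content the share of lower genes went from 3.60% to 9.14%. The median log2 fold change of the highest bin was 0.02 in pair 1, -0.08 in pair 2 and -0.06 in pair 3. After trends with GC content and length were removed, 1322 genes were higher and 749 were lower, and 1690 of the 1921 calls remained, all in the same direction. Chromosome X had 15.9% of its genes higher in that fit, against 8.01% of all genes. Chromosome 19 had 7.73% lower, against 4.54% of all genes. Its median log2 fold change went from -0.073 to -0.018, and that of all genes from 0.004 to 0.031. Leaving out control replicate 3, the shares of higher genes were 3.03% on chromosome X and 1.05% of all genes. The shares of lower genes were then 3.14% on chromosome 19 and 1.05% of all genes.

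**Figure D5:**
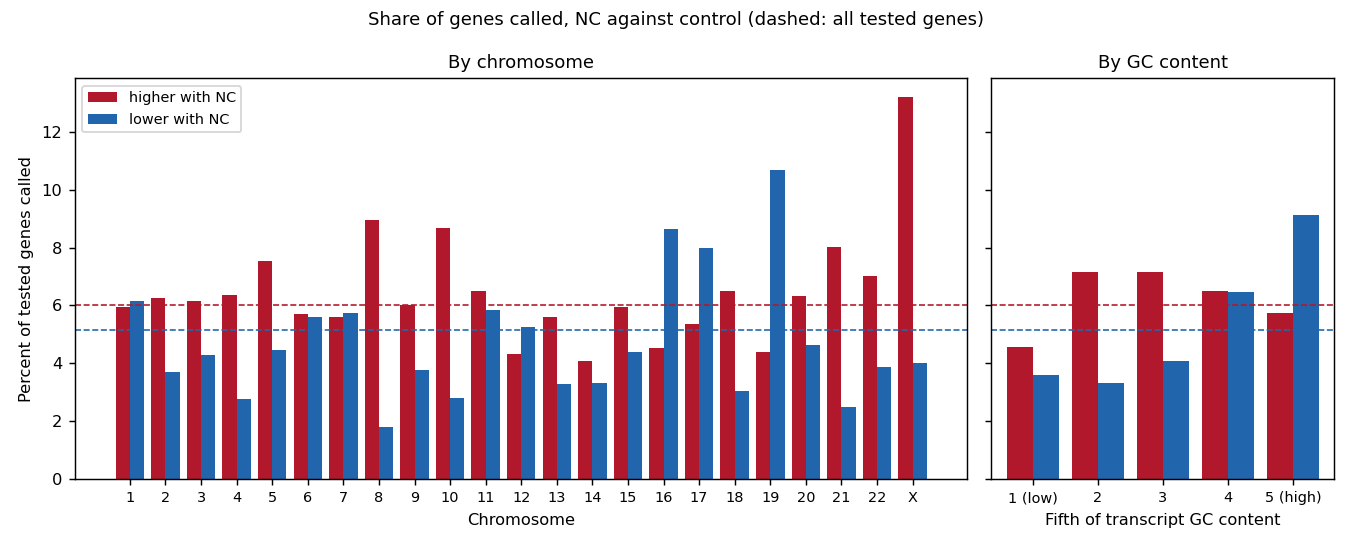
Bars give the percent of tested genes called higher (red) or lower (blue) with NC, by chromosome on the left and by 5 bins of transcript GC content on the right, and dashed lines mark the shares over all tested genes (6.03% and 5.15%). Chromosome X has the highest share of higher genes (13.2%) and chromosome 19 the highest share of lower genes (10.7%).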

How the data were processed

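Poly(A) RNA from 12 libraries was sequenced, and per the labels the authors mapped reads to GRCh38.p13 with STAR 2.7.3, sorted them with SAMtools 1.8 and counted them with featureCounts. The deposited values are raw counts for 26485 gene symbols (3535 with no count), 1 column per library. The annotation release, the strand setting and the handling of multimapping reads are not given in the sources used here.

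Counts were tested with the quasi-likelihood test of edgeR 4.0.16 (limma 3.58.1, R 4.3.3) with TMM normalization, robust estimation and its filter for weakly expressed genes (a minimum count of 10 and total of 15). All 12 libraries were fitted with construct and replicate number as terms (6 residual degrees of freedom), because the study modeled harvest date. *PEG10* stayed in the fit and out of the counts of genes. Replicate numbers were taken as passages, which the labels do not date. Deviations of same-numbered NC and control libraries from their group means correlated at 0.30 to 0.46 and those of different numbers at -0.49 to 0.07. Over all constructs the ranges were 0.14 to 0.54 and -0.50 to 0.07. Deviations from a group mean cancel, so the values for different numbers are not independent of those for equal numbers. P-values were adjusted by Benjamini-Hochberg over 17176 genes at a threshold of 0.05. Each SE was derived from the test, as the absolute log2 fold change over the square root of its F statistic. Normalized counts are counts over the TMM-scaled library size, times the mean library total. No set test was run, and lists are described by counts and medians. Gene symbols were matched to GENCODE release 44 directly or through RefSeq synonyms (24528 of 26485). A motif search of promoters was void, because 74.6% of the tested genes had a promoter sequence. Mitochondrially encoded genes were not analysed here.

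The genes and lists were chosen with earlier results of these data known. Named genes were, of called genes averaging 1 log2 CPM or more (prior count 2) and 1 direction in all pairs, the 12 largest rises and falls and the 6 most abundant genes in each direction. Added to these were up to 5 genes in each direction that stood apart from all other groups, up to 4 genes of each list with the smallest adjusted p, the study's 6 axon extension genes, *TXNIP* and the alpha-arrestins. In simulated data for NC against control (17001 genes, 30625725 to 45316749 counts per library), 63% of 100 genes changed by 0.5 and 90% of 100 changed by 1 on the log2 scale were called, with 10 false calls. The simulated counts had replicate effects shared by all constructs and the spread estimated by the fit. No single library was made to depart from the others in them, so the false calls do not cover such a departure. Alternatives included DESeq2 1.42.0, other normalizations and filters, thinned counts, trends with GC content and length, the 6 libraries alone, no replicate number and each library or number left out. Figures were drawn with matplotlib 3.10.9.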

Additional observations from a re-analysis of the deposited data

Results flagged for a closer look

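For 8 of the 163 named genes, all 3 NC libraries moved one way from their controls and all 3 gag libraries the other way. For each of them the difference between NC and gag passed edgeR's quasi-likelihood test. Genes that were not named were not searched by this rule. NC and gag were compared with the same 3 control libraries, so the opposite signs are not independent of each other. The difference between NC and gag does not use those controls, but it shares the NC libraries with the comparison of NC with control.

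*ASNS* was higher with NC than with gag by 0.57 on the log2 scale (adjusted p = 0.0012), *PFKL* by 0.47 (adjusted p = 0.00068) and *SCD* by 0.56 (adjusted p = 0.00041). The other 5 genes were lower with NC than with gag. *ZCCHC12*, which itself encodes a zinc knuckle protein, had a log2 difference of -0.92 (adjusted p = 0.00026). *ZFP36*, whose product destabilizes messages with AU-rich elements, had -0.82 (adjusted p = 0.00097), and *ARRDC2* had -0.41 (adjusted p = 0.0076). *SFPQ* had -0.36 (adjusted p = 0.0033). *OSGIN1*, a target of NRF2, had -1.06 (adjusted p = 0.0015), although against control neither construct passed the threshold for it (log2 fold change -0.51 with NC, adjusted p = 0.099, and 0.55 with gag, adjusted p = 0.18).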

How the results depend on the processing

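With no replicate block, 1 gene changed between NC and control (0 higher, 1 lower), 0 between NC and gag and 0 between NC and gag-pol by edgeR, against 1089, 1891 and 404 at an unadjusted p-value under 0.05, so the counts rest on the pairing by number. A log2 fold change of at least 0.5 left 593 genes against control (252 higher, 341 lower), 814 against gag and 13 against gag-pol. The other alternatives with all libraries gave 1785 to 2394 genes against control, and higher genes outnumbered lower ones except with upper-quartile factors (900 higher, 988 lower) and with the 6 libraries alone (1047 higher, 1053 lower). Trends with GC content and length gave 1322 higher and 749 lower. Leaving out libraries gave 367 to 2368 genes changed against control (183 to 1298 higher, 184 to 1070 lower), 341 to 3555 against gag and 0 to 532 against gag-pol. The lowest count against control, 367, was without control replicate 3; without replicates 1, 2 and 3 it was 498, 997 and 807, without NC replicates 1 and 3 966 and 822, and without control replicate 2 1176. Genes that differed between NC and gag-pol numbered 9 with 10 counts in every library, 8 with upper-quartile factors, 24 without robust estimation, 33 with GC and length trends removed, 37 in thinned counts, 44 in the 6 libraries alone, 128 with no filter and 213 with DESeq2. Genes apart from control, gag and gag-pol together numbered 0 with 10 counts in every library, with upper-quartile factors and with no replicate block, 3 without robust estimation, 6 with the trends removed, 7 in thinned counts, 21 with DESeq2, 23 with no filter and 0 to 108 with libraries left out. Of 142 named genes that were called, 135 to 142 kept the call in alternatives that kept the block and all libraries, and 64 (without control replicate 3) to 142 when libraries were left out. No called named gene reversed. Genes never called changed sign when libraries were left out: *ARRDC1* ranged from -0.0072 to 0.067, *UBE3A* from -0.044 to 0.14, *UBQLN4* from -0.026 to 0.11 and *USP9X* from -0.027 to 0.22 on the log2 scale. The cause was not tested.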
